A study of Caenorhabditis elegans with 3 samples.

Results

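Vulval development in Caenorhabditis elegans is driven by an EGF signal and a Notch signal, and 10 genes of these pathways were examined among the 20392 genes measured. They are the EGF gene lin-3 (F36H1.4), the EGF receptor gene let-23 (ZK1067.1), the Ras gene let-60 (ZK792.6), the Notch ligand gene lag-2 (Y73C8B.4), the Notch receptor genes lin-12 (R107.8) and glp-1 (F02A9.6), the FGF gene egl-17 (F38G1.2), the Hox gene lin-39 (C07H6.7), the winged-helix gene lin-31 (K10G6.1) and the LIM homeobox gene lin-11 (ZC247.3). They were taken by a list of names that holds no measured value but was drawn up with earlier results of these data known. Each name matched exactly 1 measured gene and the same symbol in the WBcel235 annotation. The series holds 1 group, wild-type N2 Bristol animals at mid-L4, the last larval stage, sampled after 29 h at 25 °C on OP50 bacteria with no treatment. Ribosomal-RNA-depleted total RNA of whole animals was sequenced in 3 libraries, which the submitters call independent. Each gene has a TPM value per library, a transcript abundance scaled to transcript length and to the library total, from which read depth cannot be read, so every error given is the spread between libraries.

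In the vulva, LIN-3 is released by the anchor cell of the gonad and binds LET-23 on the vulval precursor cells, where LET-60 passes the signal to the Raf, MEK and ERK kinases. Neighbouring precursor cells then signal to each other through LIN-12, which holds back EGF signalling in the secondary cells. LIN-39 keeps the precursor cells competent, LIN-31 is a nuclear target of the ERK kinase, and EGL-17 and LIN-11 act in or mark descendants of these cells. These steps are background, and whether they were under way at the mid-L4 stage sampled here was not tested. Several of the genes also work elsewhere. GLP-1 keeps germ line stem cells dividing in response to LAG-2 from the distal tip cell, and lin-11 and lin-39 also function in neurons. The libraries were made from whole animals, in which vulval cells are a small minority, so fewer cells expressing a gene and less RNA per cell cannot be told apart, and no value can be assigned to the vulva.

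The genes lay on all 6 chromosomes, with 3 on chromosome III. On that chromosome lin-12 (9060221 to 9071472, minus strand) and glp-1 (9092241 to 9099698, plus strand) lay 20768 nt apart with 6 protein-coding genes between them. Both receptors have long transcripts, 4555 nt for lin-12 and 4326 nt for glp-1, as has let-23 with up to 4336 nt, while the shortest transcript is that of egl-17 at 787 nt. Each of the 10 is annotated as protein-coding, and lin-3 has the most annotated transcripts, 11, which the TPM per gene does not separate. No other gene had values identical to any of the 10.

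Of the 10 genes, 7 were detected, meaning that they reached 1 TPM or more in every library, and 61.1% of all measured genes did so. The 3 below this level were lag-2, lin-31 and egl-17. The summed level of the 10 genes was 37.3, 36.6 and 38.6 TPM in replicates 1, 2 and 3. On average 66.9% ± 1.62 (SD, n = 3) of that sum came from glp-1, let-60 and let-23. The median of their mean levels was 2.56 TPM, against 3.48 TPM for all measured genes.

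**Figure D1:**
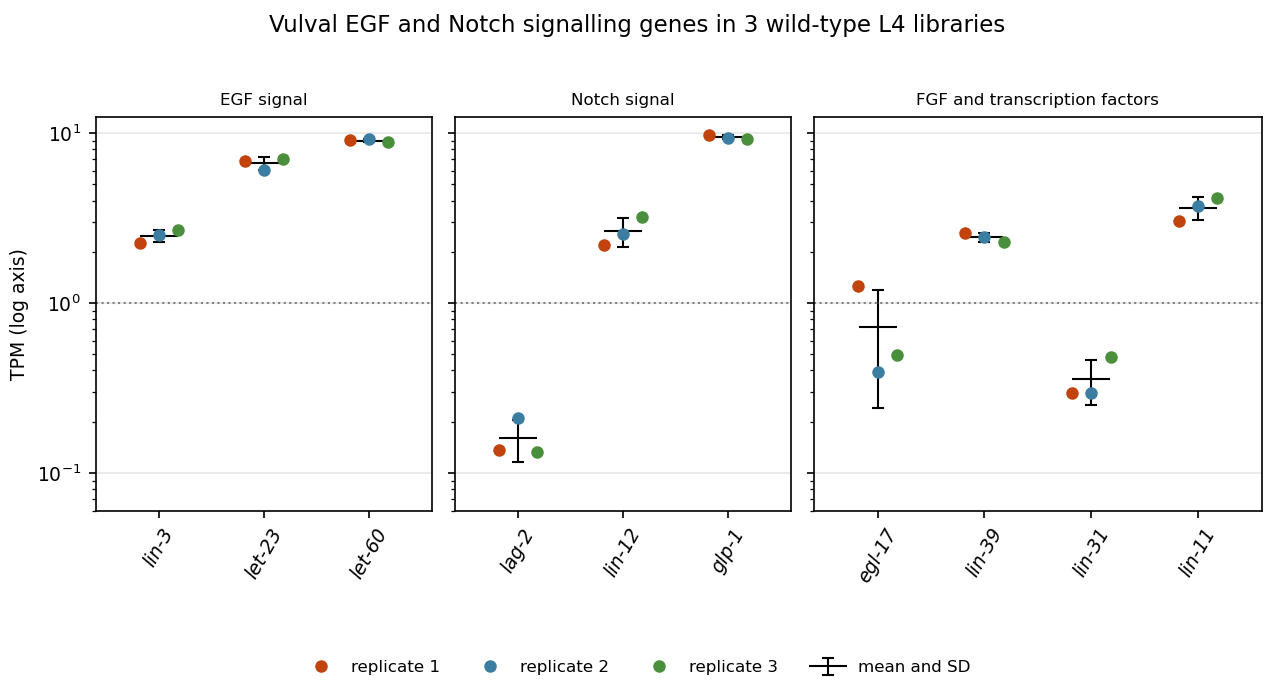
TPM of each of the 10 genes (log axis) in replicates 1, 2 and 3, with the mean and SD over the 3 libraries, and a dotted line at 1 TPM. The plot shows glp-1 and let-60 near 9 TPM in all libraries, lin-3, lin-12 and lin-39 together near 2.5 TPM, and lag-2 lowest.

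Among the EGF signal genes, the ligand was the lowest and Ras the highest. The ligand gene lin-3 (IV, 11054308 to 11063768) had 2.26, 2.51 and 2.68 TPM in replicates 1, 2 and 3, a mean of 2.48 ± 0.209 TPM (SD, n = 3). The receptor gene let-23 (II, 9197512 to 9207213) had 6.82, 6.02 and 7.05 TPM, a mean of 6.63 ± 0.543 TPM. The Ras gene let-60 (IV, 11688227 to 11691088) had 9.04, 9.16 and 8.85 TPM, a mean of 9.02 ± 0.157 TPM. The ranges of the 3 genes did not overlap.

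The ligand stood below its receptor in 3 of 3 libraries. The difference in log2(TPM + 0.1), lin-3 minus let-23, was -1.55, -1.23 and -1.37 in replicates 1, 2 and 3 (mean -1.38 ± 0.16, SD, n = 3). On the TPM scale let-23 was 2.67 times lin-3. For let-60 minus let-23 the difference was 0.40, 0.60 and 0.32 (mean 0.44 ± 0.14). With 3 libraries an exact two-sided sign-flip permutation test cannot give a p below 0.25, so no test was made of differences between genes, and their size is set against the SD over libraries. The lin-3 value carries a further limit. In 7 of its 11 annotated transcripts, exons share up to 209 nt with exons of ttr-16 on the opposite strand, a gene at 518, 458 and 502 TPM in replicates 1, 2 and 3. The library kit marks strand, but the sources used here do not say whether strand was used in the quantification. The part of ttr-16 reads in the lin-3 value was not tested.

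The other genes of the EGF-Ras pathway, from lists chosen with earlier results of these data known, were all detected, 28 of 28. Of all measured genes 61.1% were detected. The median level of the 28 genes was 7.82 TPM, and none had a mean below that of lin-3, while 9 stood above let-60. The membrane protease gene rom-1, which promotes EGF signalling, averaged 9.47 ± 1.17 TPM (SD, n = 3). The genes lin-2, lin-7 and lin-10 encode the complex that places LET-23 at the basolateral membrane, and averaged 5.24 ± 0.553, 9.58 ± 1.12 and 8.14 ± 0.244 TPM. Between receptor and Ras act the adaptor gene sem-5 at 9.23 ± 0.897 TPM, the exchange factor gene sos-1 at 8.92 ± 1.08 TPM, the phosphatase gene ptp-2 at 9.02 ± 1.12 TPM and the adaptor gene soc-1 at 4.99 ± 0.803 TPM. Of these, sem-5, sos-1 and ptp-2 differed from let-60 in mean by less than their own SD.

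In the kinase cascade below Ras, the MEK and ERK genes exceeded let-23 by more than the spread between libraries and the Raf gene did not. The Raf gene lin-45 averaged 6.74 ± 0.506 TPM, the MEK gene mek-2 18.98 ± 0.268 TPM and the ERK gene mpk-1 15.2 ± 2.30 TPM. (The Raf and ERK genes are named for their place in the cascade, after their values had been seen.) Among the scaffolds and cofactors the leucine-rich-repeat gene soc-2 was highest at 22.7 ± 1.96 TPM and the phosphatase subunit gene sur-6 had 16.6 ± 0.513 TPM. The lowest gene of the cascade list was the scaffold gene ksr-2 at 2.91 ± 0.0163 TPM, with 2.92, 2.92 and 2.89 TPM in replicates 1, 2 and 3. In its lowest library ksr-2 still exceeded lin-3 in its highest.

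Genes that restrain the EGF signal spanned 2.94 to 12.3 TPM, and 7 of 7 were detected, against 61.1% of all measured genes. The receptor phosphatase gene dep-1 was the highest by mean and the least even, at 16.8, 12.1 and 7.93 TPM in replicates 1, 2 and 3. The Cbl gene sli-1 averaged 9.07 ± 0.629 TPM, the clathrin adaptor gene unc-101 8.86 ± 0.733 TPM and the Ras GTPase-activating gene gap-1 2.94 ± 0.447 TPM. One annotated transcript of unc-101 measures 177 nt, and TPM is sensitive to such short transcripts. At the nuclear end, the ETS factor gene lin-1 averaged 8.61 ± 1.44 TPM. The Mediator-linked genes sur-2 and lin-25 had 3.63 ± 0.227 and 4.04 ± 0.226 TPM, and eor-1 and eor-2, which act positively downstream of Ras, had 5.38 ± 0.285 and 4.30 ± 0.201 TPM.

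LIN-31 is a partner of LIN-1 in the vulval precursor cells, and its gene was far less abundant. The lin-31 gene (II, 3982549 to 3987029) had 0.297, 0.295 and 0.480 TPM in replicates 1, 2 and 3, a mean of 0.358 ± 0.106 TPM. Replicate 3 was the highest, and the other 2 libraries were nearly equal. Every library lay below the lowest library of each of the 28 EGF-Ras pathway genes.

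**Figure D2:**
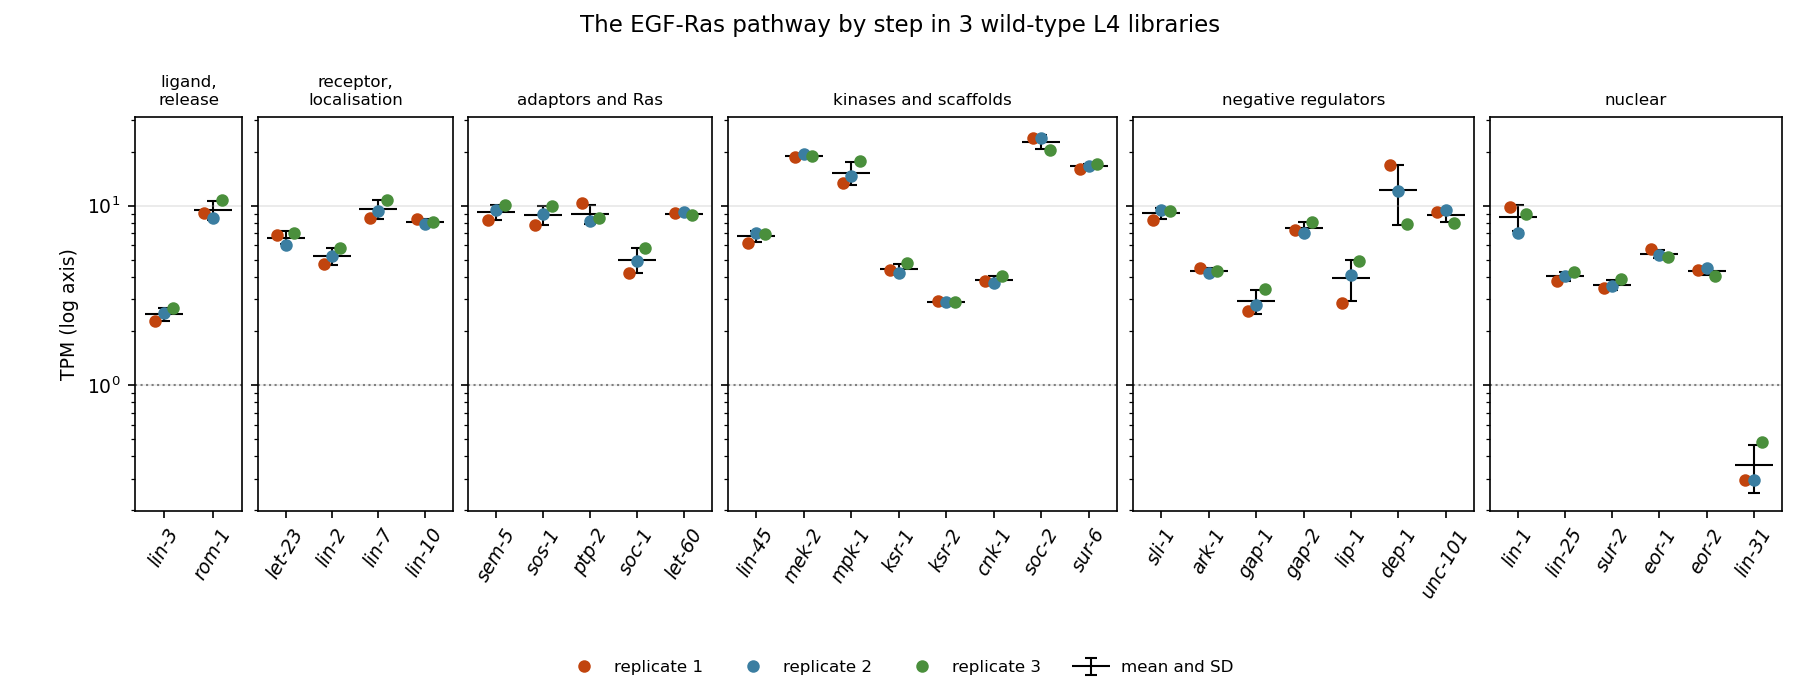
TPM (log axis) of the EGF-Ras pathway genes by step in replicates 1, 2 and 3, with the mean and SD over the 3 libraries and a dotted line at 1 TPM. The 28 listed genes lie between 2.91 and 22.7 TPM by mean, with lin-3 just below them and lin-31 at 0.358 TPM.

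The Notch genes spanned the widest range of levels, from the least to the most abundant of the 10. The ligand gene lag-2 (V, 3188343 to 3190115) stood at 0.136, 0.210 and 0.133 TPM, with replicate 2 the highest, a mean of 0.160 ± 0.0439 TPM (SD, n = 3). The receptor gene lin-12 had 2.19, 2.54 and 3.22 TPM, a mean of 2.65 ± 0.523 TPM. The second receptor gene, glp-1, had 9.70, 9.34 and 9.27 TPM, a mean of 9.43 ± 0.230 TPM, the highest of all 10. The lowest glp-1 library was above the highest lin-12 library, and the lowest lin-12 library was above the highest lag-2 library.

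On the log2(TPM + 0.1) scale, lag-2 minus lin-12 was -3.28, -3.09 and -3.83 in replicates 1, 2 and 3 (mean -3.40 ± 0.39), and lag-2 minus glp-1 was -5.38, -4.93 and -5.33 (mean -5.21 ± 0.25). On the TPM scale lin-12 was 16.6 times and glp-1 59.1 times lag-2. The size of these differences depends on the pseudocount, because lag-2 is close to it. Between the receptors, lin-12 minus glp-1 was -2.10, -1.84 and -1.50 (mean -1.81 ± 0.30), and on the TPM scale glp-1 was 3.56 times lin-12. Each of these differences was negative in all 3 libraries.

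Most other ligands of the DSL family, to which lag-2 belongs, were low as well. Of 12 listed ligands and co-ligands, 4 were detected, against 61.1% of all measured genes. These were the DSL gene apx-1 at 1.16 ± 0.112 TPM (SD, n = 3) and the co-ligand genes osm-11, dos-1 and osm-7. The DSL gene dsl-5 had a higher mean than apx-1, 1.21 ± 0.257 TPM, but just missed detection with 0.994 TPM in replicate 1. The co-ligand genes encode proteins that act with DSL ligands. Among them osm-11 was highest at 60.7 ± 3.88 TPM and osm-7 had 5.23 ± 0.838 TPM. The least even was dos-1, with 3.94, 7.13 and 10.98 TPM in replicates 1, 2 and 3. Below lag-2 stood 3 genes, chosen here after their values were seen. They were arg-1, which was listed at 0 in replicate 1, and dsl-4 and dsl-6, which were listed at 0 in replicates 1 and 2.

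Genes acting on or after the receptors, from lists chosen with earlier results of these data known, were all detected, 17 of 17. Of all measured genes 61.1% were detected. The median of the 17 genes was 5.45 TPM. All 17 had a higher mean than lin-12, and 5 of them had a mean above let-60. In the processing list the ADAM protease gene sup-17 averaged 11.97 ± 1.24 TPM. The gamma-secretase genes pen-2 and aph-2 averaged 8.21 ± 0.631 and 8.08 ± 0.296 TPM, and the presenilin gene hop-1 was lowest at 3.19 ± 0.246 TPM. In the nuclear complex, the DNA-binding gene lag-1 averaged 3.80 ± 0.400 TPM and the co-activator gene sel-8 6.02 ± 0.0309 TPM, and sel-10, the F-box gene for turnover of the receptor, averaged 14.6 ± 1.31 TPM.

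Genes known as targets of the lateral LIN-12 signal in the vulva were all detected, 6 of the 6 measured, against 61.1% of all genes. The highest were lst-4 at 27.3 ± 3.29 TPM, the clathrin adaptor gene dpy-23 at 10.8 ± 1.76 TPM and lst-1 at 10.3 ± 1.30 TPM. The shortest annotated transcript of lst-4 measures 174 nt. The lowest was the ERK phosphatase gene lip-1, with 2.88, 4.11 and 4.90 TPM in replicates 1, 2 and 3. In the germ line, lst-1 and sygl-1 are the targets through which GLP-1 maintains stem cells. The sygl-1 gene had 2.26, 3.13 and 4.69 TPM, lowest in replicate 1 and highest in replicate 3, as were 26.7% of all detected genes. Although glp-1 was highest in replicate 1, it differed only 1.05-fold between libraries, and its relation to sygl-1 was not tested.

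**Figure D3:**
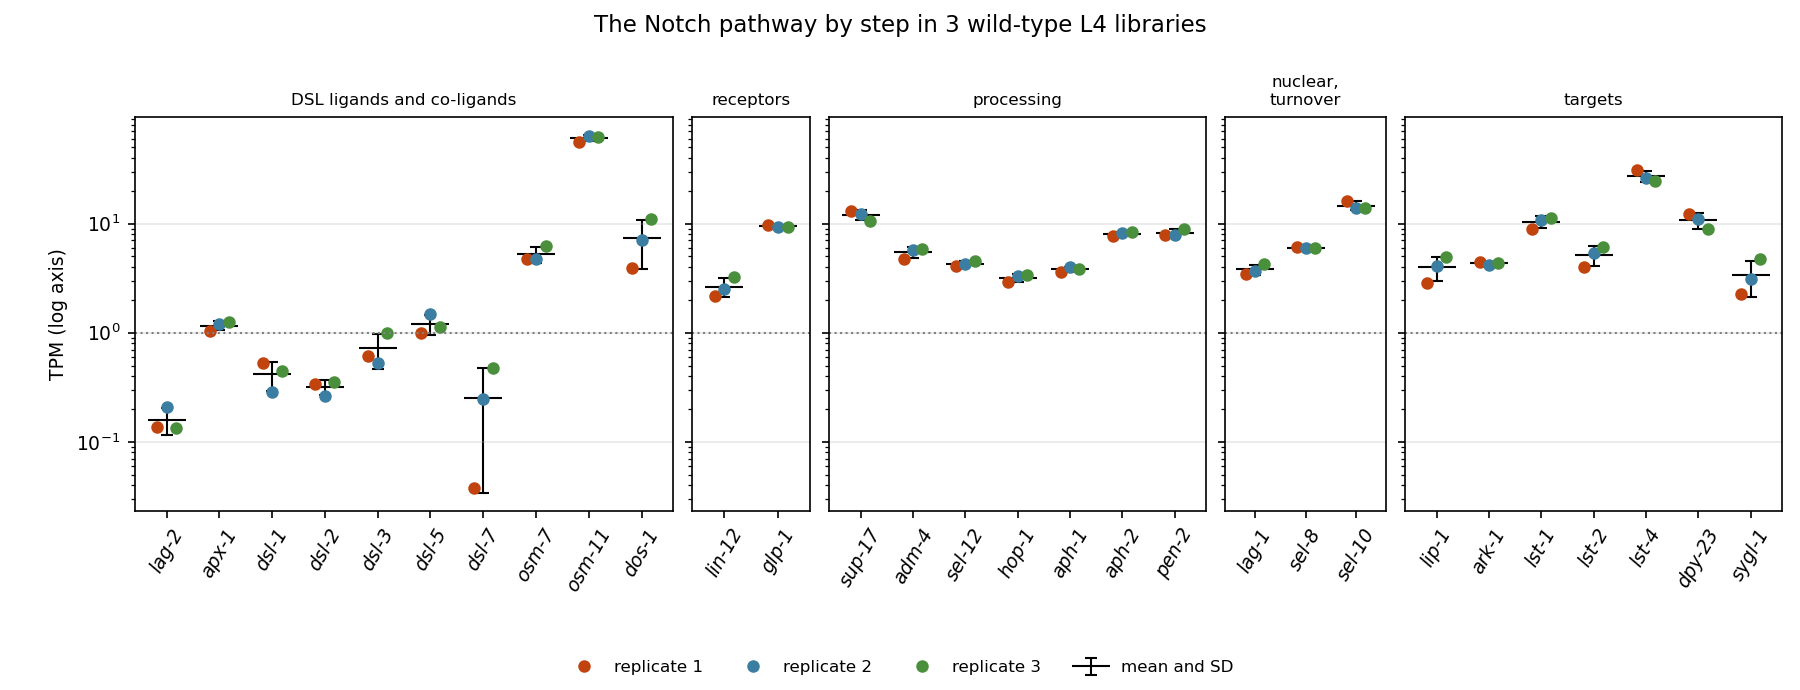
TPM (log axis) of Notch pathway genes by step in replicates 1, 2 and 3, with the mean and SD over the 3 libraries and a dotted line at 1 TPM. Genes listed at 0 in a library (arg-1, dsl-4 and dsl-6) are not drawn. The DSL ligands lie around or below the line, and receptors, processing genes and targets lie above it.

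The FGF gene and the transcription factor genes lay between 0.358 and 3.62 TPM. The FGF gene egl-17 (X, 489685 to 492318), a ligand that guides migrating sex myoblasts and whose expression marks vulval cells, had 1.26, 0.391 and 0.495 TPM in replicates 1, 2 and 3, a mean of 0.716 ± 0.476 TPM (SD, n = 3). It reached 1 TPM in replicate 1 alone, and its mean without that library was 0.443 TPM, 0.619 times the mean of all 3. The FGF receptor gene egl-15 had 9.50, 10.5 and 10.6 TPM. On the log2(TPM + 0.1) scale egl-17 minus egl-15 was -2.82, -4.43 and -4.18 (mean -3.81 ± 0.87), below 0 in 3 of 3 libraries. The second FGF gene, let-756, averaged 4.03 ± 0.138 TPM and the receptor phosphatase gene clr-1, which opposes EGL-15, 10.9 ± 0.803 TPM.

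The Hox gene lin-39 (III, 7528641 to 7536632) had 2.59, 2.43 and 2.29 TPM in replicates 1, 2 and 3, a mean of 2.44 ± 0.154 TPM. The posterior Hox gene mab-5 averaged 3.71 ± 0.646 TPM. The homeodomain cofactor genes ceh-20 and unc-62 averaged 9.68 ± 1.52 and 8.49 ± 0.856 TPM, so both cofactors exceeded lin-39 in every library.

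The LIM homeobox gene lin-11 (I, 10248288 to 10255327), needed for the secondary vulval lineage, had 3.03, 3.70 and 4.13 TPM in replicates 1, 2 and 3, a mean of 3.62 ± 0.553 TPM. It was the highest of the transcription factor genes among the 10. Of 10 other genes that act in vulval cells or the anchor cell, 7 were detected, against 61.1% of all measured genes. The median of all 10, detected or not, was 1.81 TPM. The highest were fos-1, a factor for anchor cell invasion, at 11.04 ± 0.622 TPM, the zinc finger gene lin-29 at 6.93 ± 2.15 TPM and the cadherin gene cdh-3 at 6.10 ± 0.867 TPM, and the lowest was the bHLH gene hlh-2 at 0.737 ± 0.191 TPM.

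Ordered by mean, the genes were glp-1, let-60, let-23, lin-11, lin-12, lin-3, lin-39, egl-17, lin-31 and lag-2. Neighbours lin-12 and lin-3 differed by 0.166 ± 0.328 TPM (SD, n = 3), and lin-3 and lin-39 by 0.0456 ± 0.362 TPM, both within the spread between libraries. The same held for egl-17 and lin-31 at 0.359 ± 0.527 TPM. The remaining neighbours differed in mean by more than the larger SD of each pair and in the same direction in 3 of 3 libraries, although the ranges of lin-11 and lin-12 overlapped. The step between lin-39 and egl-17 was 3.40-fold between means, but 5.32-fold without replicate 1, and 2.05-fold, 6.21-fold and 4.62-fold within replicates 1, 2 and 3. Similarly egl-17 over lin-31 was 4.26-fold in replicate 1 and 1.32-fold and 1.03-fold in replicates 2 and 3. In each library the first 4 and the last 3 genes kept their places, and only the order of lin-12, lin-3 and lin-39 changed, with lin-39 first of these in replicate 1 and last in replicates 2 and 3.

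Among the 7 detected genes, 0 differed by 2-fold or more between the highest and the lowest library, and 15.4% of all detected genes did so. The share for all detected genes was 5.49% without replicate 1 and 6.77% without replicate 3. Among the 77 detected pathway genes outside the 10, 3 did, namely dos-1, dep-1 and sygl-1. None of these pathway genes did so without replicate 1 or without replicate 3. The most even was let-60, with a coefficient of variation of 1.75%, and only 2.2% of the 500 genes nearest in mean level had a lower one. For glp-1 the coefficient was 2.44%, with 5.4% of the nearest 500 genes below it, and for lin-39 it was 6.31%, with 8.2% below. By contrast lin-12, at 19.8%, and lin-11, at 15.3%, stood near the middle of genes of their level, with 49.6% and 46.4% below. Of the 3 genes under 1 TPM, egl-17 had a coefficient of 66.5%, above 84.4% of the genes nearest in level. Without replicate 1 its coefficient was 16.5%, for which no share of nearest genes was computed. For lag-2 and lin-31 the coefficients were 27.5% and 29.8%, with 20.8% and 37.2% of the nearest 500 genes below. These shares are descriptions, since 3 libraries fix a coefficient of variation only loosely.

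**Figure D4:**
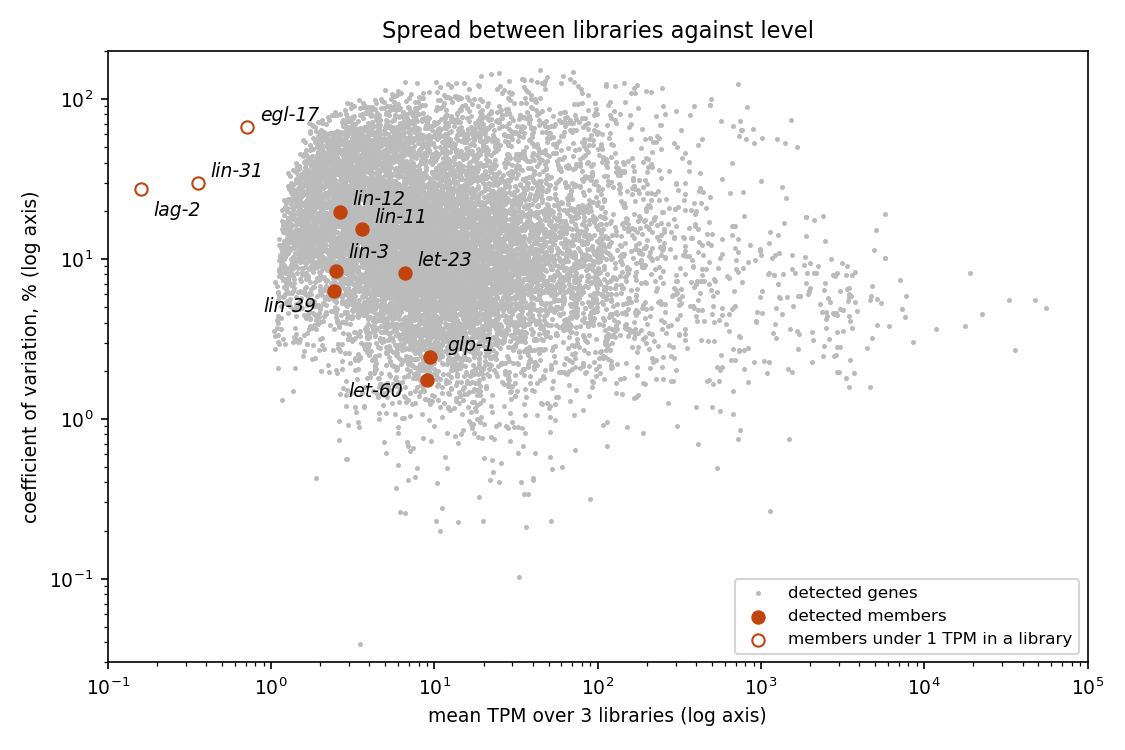
Coefficient of variation over the 3 libraries (%, log axis) against mean TPM (log axis). Grey points are all detected genes, filled points the 7 detected genes of the 10, and open points egl-17, lin-31 and lag-2. let-60 and glp-1 lie low in the cloud for their level, and egl-17 lies at 66.5%, which is 16.5% without replicate 1.

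The libraries differed from each other in cuticle and sperm genes, so the direction of each of the 10 genes is given beside these. Summed TPM in replicates 1, 2 and 3 was 375, 124 and 22.3 for 5 cuticle genes listed as adult markers. It was 860, 352 and 212 for 6 major sperm protein genes and 23.4, 15.99 and 7.02 for the 6 yolk protein genes. Of the adult cuticle list col-19 and col-7 were listed at 0 in 1 library each and averaged 0.0254 and 0.104 TPM. The sum of that list came from bli-1, bli-2 and rol-6 and is not read as a measure of adult stage. In the yolk list vit-3, vit-4 and vit-5 averaged 0.0423, 0.0532 and 0.00854 TPM, so its sum came from vit-1, vit-2 and vit-6. Markers of body wall muscle (2241, 2263 and 2319 TPM), intestine (713, 697 and 706 TPM), neurons (61.9, 63.7 and 59.3 TPM) and germ line (106, 111 and 112 TPM) were detected in full, 4 of 4 each. Such sums can hide unlike members. In the germ line list glh-1 rose from 36.3 TPM in replicate 1 to 45.2 in replicate 3, and pgl-1 from 30.6 to 37.6. Between the same libraries gld-1 fell from 14.7 to 10.8 TPM and him-3 from 24.0 to 18.9 TPM. The intestine sum came mostly from act-5, at 682 TPM in replicate 1 and 674 in replicate 3. Between these libraries elt-2 rose from 5.53 to 8.47 TPM and elt-7 from 4.68 to 5.24, while ges-1 fell from 20.6 to 19.2. The neuron sum came mostly from snb-1, which fell from 50.8 to 44.8 TPM. The other neuron markers rose, rab-3 from 3.42 to 5.18 TPM, unc-119 from 5.01 to 6.35 and rgef-1 from 2.72 to 2.93. None of the 4 embryonic markers and neither marker of male neurons was detected, with sums of at most 0.312 and 0.115 TPM.

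Among the detected genes lin-3, lin-12 and lin-11 were highest in replicate 3 and lowest in replicate 1, a pattern that 26.7% of all detected genes shared. The opposite pattern was seen in glp-1 and lin-39, and in 27.8% of all detected genes. Counts of 3 and 2 among 7 genes are not read as different from these shares. The sizes were unequal, since lin-12 was 1.47-fold and lin-11 1.36-fold higher in its highest than in its lowest library, against 1.05-fold for glp-1 and 1.13-fold for lin-39. Below the detection level, egl-17 was highest in replicate 1, as the cuticle, sperm and yolk sums were, but its replicates 2 and 3 did not follow them. The part of these differences between libraries in the values of egl-17, lin-12 and lin-11 was not tested. Among the other pathway genes the widest ranges ran both ways, with dep-1 and lin-29 highest in replicate 1. Highest in replicate 3 were dos-1, sygl-1, lip-1 and lst-2. Of the 28 EGF-Ras pathway genes 11 were highest in replicate 3 and lowest in replicate 1, and 4 the reverse. For 21 detected Notch pathway genes these counts were 12 and 4. Shares of all detected genes were 26.7% and 27.8%. The sets share lip-1 and ark-1, and the excess over these shares was not tested.

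**Figure D5:**
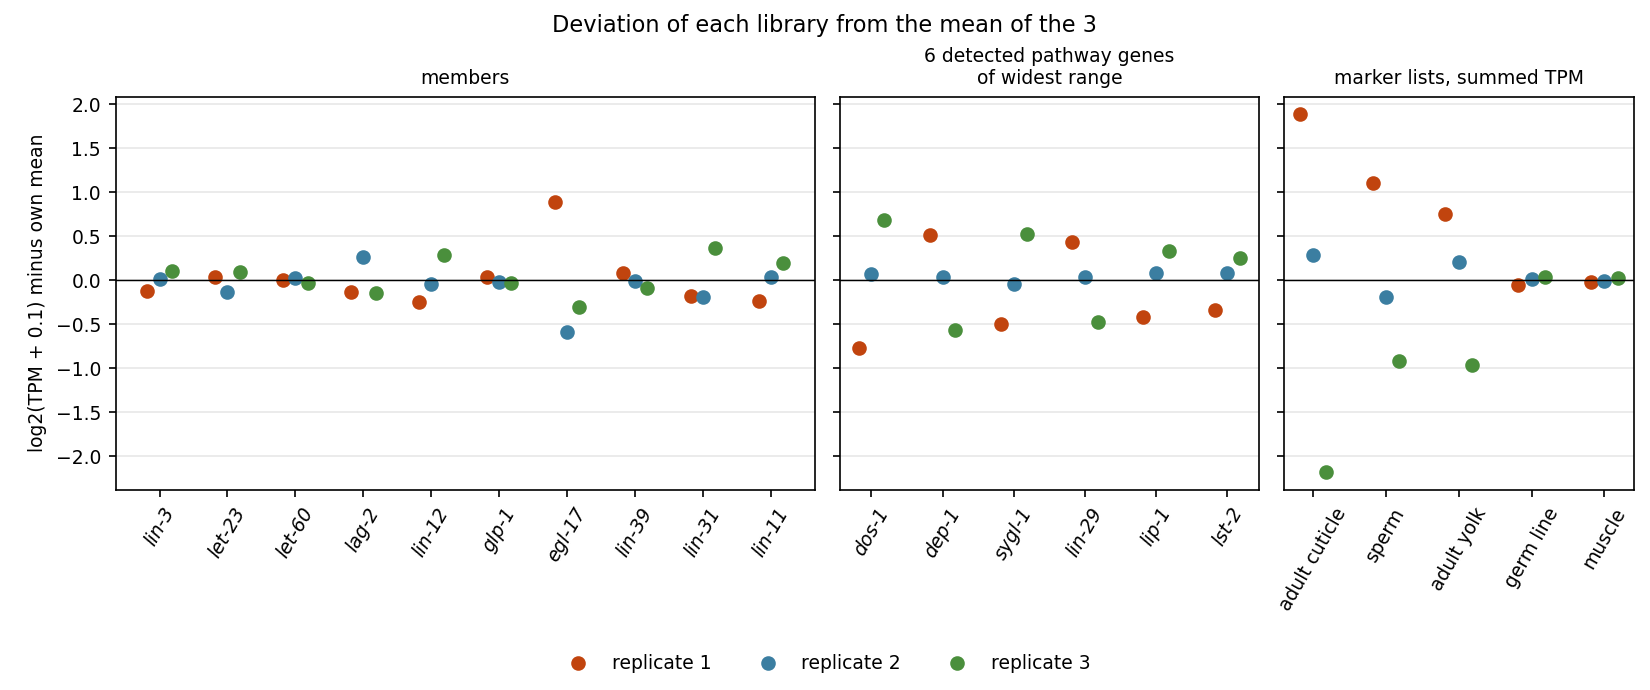
Difference of each library from the gene's mean over the 3 libraries in log2(TPM + 0.1), for the 10 genes, for the 6 detected pathway genes with the widest range, and for the summed TPM of 5 marker lists. let-60 and glp-1 stay close to 0, egl-17 stands apart in replicate 1, and the cuticle and sperm sums differ most.

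Genes with the most similar values were sought by the root mean square difference in log2(TPM + 0.1) over the 3 libraries. Within the 10, the closest pair was let-60 and glp-1 at 0.07, followed by lin-3 and lin-12 at 0.15. The nearest for lin-39 was lin-3 at 0.17, for lin-11 lin-12 at 0.45 and for let-23 let-60 at 0.46. Among all measured genes the nearest to let-60 were dhs-11 and snpc-1.2, to glp-1 miga-1 and gid-2, to lin-12 fbxa-216 and F17C8.3, and to lin-3 svh-1 and lim-6. The farthest of these 8 was F17C8.3, at 0.05. With 3 libraries of 1 group such neighbours are common, since 176 genes lay within 0.1 of let-60 and 26 within 0.1 of lin-12.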

How the data were processed

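The deposited values were TPM per gene, computed by the authors for each of 3 libraries, and each library summed to 1000000 TPM. The authors' mean column was not used. The quantifier was kallisto, per the submitters' processing notes. Its version, index, build, annotation and strand setting are not given in the sources used here. Names were matched to Ensembl release 115 of WBcel235 (20136 of 20392). Positions and transcript lengths describe that annotation. Because TPM holds no read counts, neither count models nor counting intervals were applied.

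The 10 genes, the pathway and marker lists and the naming rule were all chosen with earlier results of these data known. The rule named each of the 10, all genes of lists of up to 5, and the 3 highest and the lowest of longer lists. Of 132 list entries 131 matched (lst-3 did not), and lip-1, ark-1 and lst-1 stand in more than 1 list. Detection required 1 TPM in every library, and log2 values used a pseudocount of 0.1 TPM. With 1 group, no groups were compared and no test was made. Spread between libraries may be technical. Calls were tested on simulated data only, and their accuracy for the 10 genes in these libraries was not tested. Computations used Python 3.11.15, numpy 2.4.6 and pandas 2.3.3.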

Additional observations from a re-analysis of the deposited data

How the results depend on the processing

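Leaving out each replicate kept the number of detected genes among the 10 at 7, and 0 of them differed 2-fold between libraries in every such setting. Neither count could have changed. A range between libraries cannot widen when a library is left out. Below 1 TPM were lag-2 and lin-31 in every library, and egl-17 in replicates 2 and 3. At a detection limit of 5 TPM 3 of the 10 were detected, against 39.4% of all genes, and without any filter on low values 1 of the 10, egl-17, differed 2-fold, against 27.0% of the genes above 0 in all libraries. Of the other pathway genes, 46 were detected at 5 TPM against 77 at 1 TPM, and 1 then differed 2-fold. That last count was 3 in the main analysis and lay between 0 and 3 with a replicate left out, at 0 without replicate 1 and at 0 without replicate 3. The alternatives for the pathway counts were chosen after the data had been seen. The 6 log2 differences between genes kept their sign under every alternative, but no alternative could have changed it. Each difference had the same sign in all 3 libraries, and rescaling or a pseudocount keeps the order of genes within a library. With a pseudocount of 1 TPM the differences shrank to -1.13 for lin-3 over let-23 and -1.64 for lag-2 over lin-12. They shrank to -3.17 for lag-2 over glp-1 and -2.74 for egl-17 over egl-15. With a pseudocount of 0.01 TPM lag-2 over lin-12 was -3.98 and lag-2 over glp-1 -5.83, and after rescaling without the 100 most abundant genes lag-2 over glp-1 was -5.56. That rescaling multiplied all 10 means by 2.24 to 2.26, and median-of-ratios rescaling moved none of them by more than its SD. The order of the 10 means changed only without replicate 3, among lin-12, lin-3 and lin-39. No paired analysis was possible because the series holds 1 group. Levels below 1 TPM, as for lag-2, lin-31 and egl-17, rest on an unknown number of reads.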

Other observations

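The synthetic multivulva (synMuv) genes encode chromatin and transcription regulators that keep lin-3 silent in cells that should not make the EGF signal. All 17 listed synMuv genes were detected, against 61.1% of all measured genes, with a median of 7.85 TPM. None differed 2-fold between libraries, against 15.4% of all detected genes. The highest was the histone-binding gene lin-53 with 47.2, 43.9 and 39.7 TPM in replicates 1, 2 and 3, followed by the heterochromatin protein gene hpl-2 at 27.7 ± 0.686 TPM (SD, n = 3) and lin-52, a subunit of the DRM complex, at 19.5 ± 1.77 TPM. The lowest was lin-15A with 2.70, 2.30 and 2.59 TPM, a mean of 2.53 ± 0.209 TPM, close to lin-3 itself at 2.48 ± 0.209 TPM. The other 16 genes had higher means than lin-15A. The levels describe whole animals, and no relation between these genes and lin-3 was tested.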
